A study of Mus musculus with 24 samples.

Results

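Histone deacetylases and sirtuins are the enzymes that take acetyl groups off lysines in histones and other proteins. The genes described here are 10 of them, chosen by name: Hdac1, Hdac2 and Hdac3 of class I, Hdac4, Hdac5, Hdac7 and Hdac9 of class IIa, Hdac11 of class IV, and the sirtuins Sirt1 and Sirt2. They are 10 of the 18 genes of the mouse family and of 52636 genes counted, and all 10 passed the filter on low counts in every comparison.

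The RNA came from the nucleus accumbens (NAc), a ventral striatal region of reward processing, of C57BL/6 mice at 50 days of age. There were 6 control (Con) females, 6 control males, 6 females and 6 males raised under MSUS, in which pups are separated from a dam that is itself stressed at unpredictable times, with 1 library per animal from both hemispheres. The MSUS litters were kept from the dam for 2 h per day on postnatal days 1 to 14 according to the sample labels (the study's methods give a longer daily time), and control litters were left alone. The labels do not say which animals shared a litter, and the NAc was punched from frozen brain, so each library is a mixture of cell types. Libraries are named by group and number, as in MSUS male 6.

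Class I enzymes are mostly nuclear and act as the catalytic subunits of corepressor complexes (Sin3, NuRD, CoREST and MiDAC for HDAC1 and HDAC2, NCoR for HDAC3). Class IIa enzymes have little catalytic activity of their own, bind MEF2 transcription factors and leave the nucleus when kinases such as CaM kinases phosphorylate them, and HDAC4 and HDAC5 in the NAc are known for their part in responses to drugs and stress. Sirtuins need NAD. SIRT1 is mainly nuclear, and SIRT2 is mainly cytoplasmic and abundant in oligodendrocytes, the cells that make myelin.

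The sequences upstream of 2 of the genes are printed, Sirt2 because it was the single gene of the 10 that passed the test in any comparison, and Hdac9 because it had the lowest level of the 10 and the widest spread. Both are from RefSeq on GRCm38.p6 and stop before the first annotated transcript base. Capitals mark the GC box GGGCGG, the box known as CCAAT and the TATA box TATAAA, searched on either strand. No match overlapped a match of another motif in these stretches.

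Sirt2, chr7:28766502-28766734, + strand: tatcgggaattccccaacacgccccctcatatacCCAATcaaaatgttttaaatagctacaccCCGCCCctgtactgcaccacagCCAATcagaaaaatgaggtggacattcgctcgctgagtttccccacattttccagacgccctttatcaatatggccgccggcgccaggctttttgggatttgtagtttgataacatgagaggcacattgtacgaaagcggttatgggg

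Hdac9, chr12:34917096-34917345, − strand: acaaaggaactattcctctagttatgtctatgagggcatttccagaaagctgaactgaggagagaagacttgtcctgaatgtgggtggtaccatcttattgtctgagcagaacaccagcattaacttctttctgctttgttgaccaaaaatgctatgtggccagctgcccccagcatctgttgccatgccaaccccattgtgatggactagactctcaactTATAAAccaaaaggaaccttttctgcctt

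RefSeq windows of 300 bases (250 before and 50 after a start) were held for 8 of the 10 genes, 12 windows in all. The Sirt2 window held 16 CpG dinucleotides and 1 GC box, and this Hdac9 window held 0 CpG and 1 TATA box, against a median of 7 CpG over 32851 windows. Sirt1 held the most, with 47 CpG and 7 GC boxes. The GC box occurred in 7 of the 12 windows and in 35.7% of all windows, the CCAAT box in 4 and in 37.4%, and the TATA box in 1 and in 13.6%. These counts describe letters and were not tied to the RNA levels.

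The 10 genes differed widely in level per exon length (RPKM, counts per kilobase of exon scaled to the counts of the library, mean over 24 animals). Hdac11 (chromosome 6, 91156665 to 91174692, + strand), the single class IV enzyme, was the highest at 42.9 ± 3.58 RPKM (SD, n = 24) and exceeded Sirt2 in 24 of 24 animals. Sirt2 (chromosome 7, 28766735 to 28788661, + strand) followed at 22.3 ± 1.40 RPKM and exceeded Hdac2 in 24 of 24. These were the most abundant of the 18 family genes in the NAc, at the 96.4th and 91.3th percentile of the genes tested.

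Hdac2 stood at 17.1 ± 0.630 RPKM, Hdac5 at 15.4 ± 1.07 and Hdac3 at 14.955 ± 0.666. Hdac2 exceeded Hdac5 in 20 of 24 animals and Hdac5 exceeded Hdac3 in 15 of 24, so that Hdac5 and Hdac3 were not separated beyond their spread. All 24 animals had more Hdac3 than Hdac6, the cytoplasmic tubulin deacetylase, which was next at 8.51 ± 0.499 RPKM.

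Hdac4 lay lower, at 5.66 ± 0.417 RPKM, and Hdac1 at 5.33 ± 0.365 RPKM, with mitochondrial Sirt4 between them. Hdac4 exceeded Sirt4 in 11 of 24 animals and Hdac1 exceeded Sirt7 in 16 of 24, so these neighbours overlapped. Hdac1 and Hdac2, which form the same complexes, thus differed widely in RNA level. Hdac7 had 3.67 ± 0.350 RPKM and Sirt1 3.44 ± 0.302, with Hdac7 the higher in 13 of 24. Hdac9 had 2.22 ± 0.480 RPKM and was above only Sirt5 (1.87 ± 0.178) in the family.

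**Figure D1:**
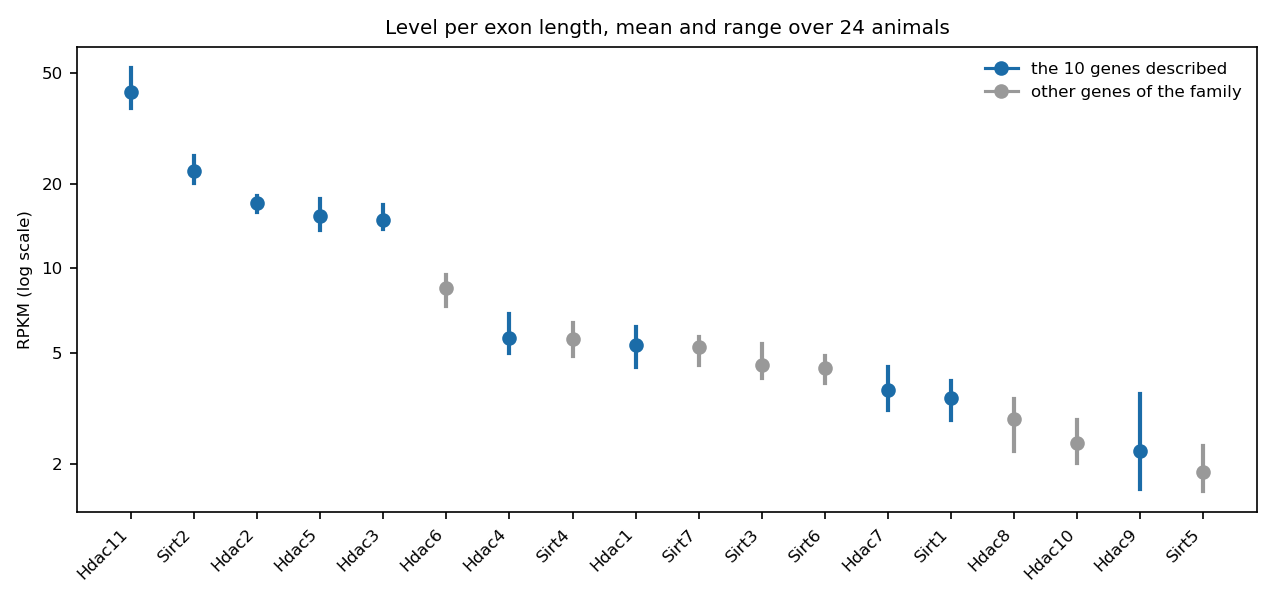
Level of the 18 histone deacetylase and sirtuin genes in RPKM (vertical axis, log scale), ordered by mean. Points are means and lines the range over 24 animals, blue for the 10 genes described and grey for the other 8. Hdac11 at 42.9 and Sirt2 at 22.3 RPKM stand above all others, and Hdac9 at 2.22 RPKM has the widest range for its level.

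The spread between animals also differed between the genes. Over 24 animals the coefficient of variation of normalized counts (counts divided by DESeq2 size factors) was 3.23% for Hdac2, 4.27% for Hdac3 and 5.61% for Hdac1. It was 7.998% for Hdac5, 8.77% for Hdac4, 10.04% for Hdac7 and 24.01% for Hdac9. Among the 10, the 3 class I genes therefore varied least and the class IIa genes most, while Hdac11, Sirt2 and Sirt1 lay between them at 7.02%, 7.43% and 7.45%. This order did not hold for class I as a whole, because Hdac8, a class I gene outside the 10, was at 8.60%.

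Summed sense counts were between 39923666 and 70575745 per library, and the lowest count among the 10 genes was 776, for Hdac1 in Con female 5. The part of counting error in the spread was not tested. Of 10 marker scores and library measures compared in females, 3 had an adjusted p under 0.10: the oligodendrocyte and endothelial scores, given below beside Sirt2, and the unassigned share. The unassigned share was the part of uniquely mapped pairs that overlapped no exon of a gene on the sense strand, so that pairs within introns are included. It was 31.0 to 34.8% in Con females and 36.3 to 43.9% in MSUS females, without overlap (means 32.7 ± 1.55 and 40.0 ± 2.72, SD, n = 6, exact permutation test, two-sided, p = 0.00216, adjusted p = 0.0433 over 20 tests). It was 34.7 to 40.6% in Con males and 32.2 to 44.7% in MSUS males (exact p = 0.684). Markers of striatal projection neurons were high in every library, with Drd1 between 6747 and 17788 normalized counts. Markers of cortical excitatory neurons varied most between libraries, from 131 to 1577 summed CPM (counts scaled to the library total).

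The first question was which of these genes differed in RNA level between MSUS and Con females. In females, 1 of the 10 genes passed an adjusted p of 0.10, Sirt2, and it was lower after MSUS. The other 9 did not pass, and none of the 10 was higher. Over all genes the comparison called 25.1% of 20571 genes tested, 13.1% higher and 11.9% lower, beside the 1 of 10 here. The median log2 fold change of the 10 was −0.04, beside −0.0027 over all genes tested. At an unadjusted p under 0.05 there were 3, Hdac5, Hdac7 and Sirt2, each below 0, beside 32.7% of all genes tested.

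Sirt2 had a lowest, median and highest normalized count of 5783, 6426 and 6856 in Con females. In MSUS females these values were 5358, 5512 and 5776. Every MSUS female lay below every Con female, although by a narrow margin between MSUS female 4 and Con female 6. The log2 fold change was −0.19 (SE 0.042, 95% interval −0.28 to −0.11, adjusted p = 0.0104 by the quasi-likelihood test of edgeR), or 0.874-fold. Of all genes tested, 7.21% had groups that did not overlap.

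The decrease of Sirt2 had the same size with each animal left out, between −0.22 and −0.17, and within each set of libraries (−0.20, SE 0.057, in library numbers 1 to 12 and −0.19, SE 0.068, in 13 to 24), where 3 against 3 animals gave adjusted p = 0.183 and 0.257. It lost its call in 5 other fits over all 12 females, in which the estimate also moved by over 1.5 times. It was −0.10 (adjusted p = 0.120) with offsets for GC content and length, and −0.10 (adjusted p = 0.172) with these offsets and the replicate block. With the oligodendrocyte score as a covariate it was −0.12 (adjusted p = 0.290), and with the unassigned share −0.11 (adjusted p = 0.765). With the spliced share (splice events per uniquely mapped pair) of each library it was −0.08 (adjusted p = 0.907). The unassigned share did not overlap between Con and MSUS females, so the fit with it can hardly tell the share from the group.

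**Figure D2:**
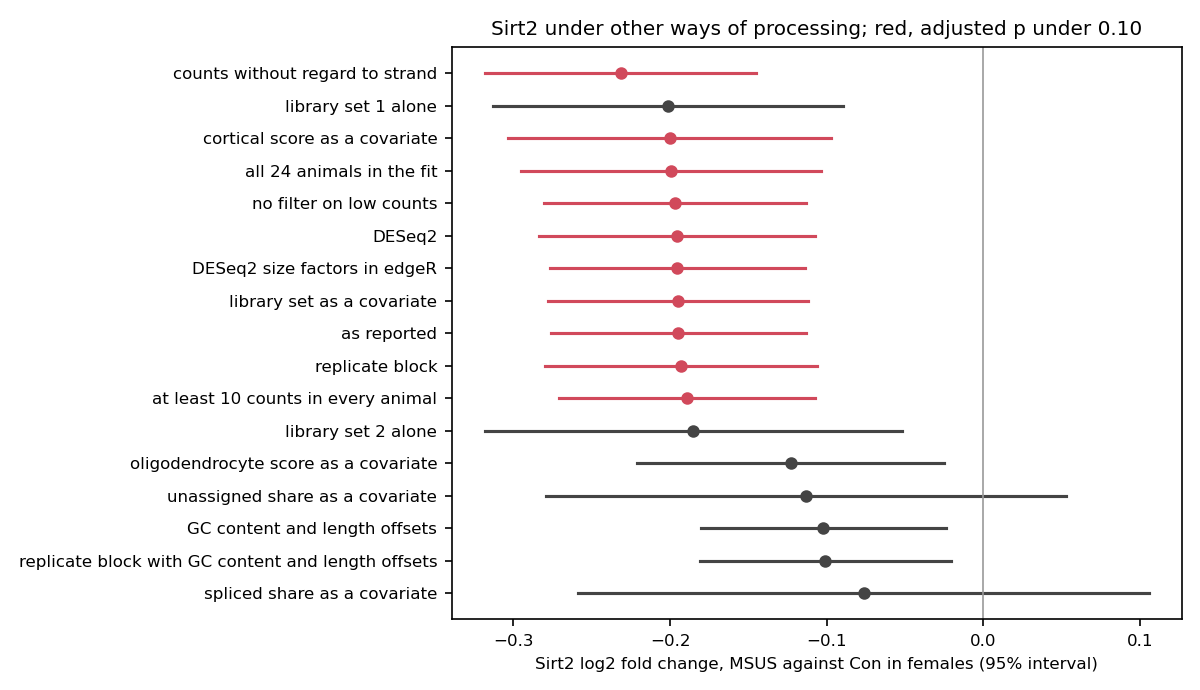
Sirt2 log2 fold change between MSUS and Con females (horizontal axis) with its 95% interval, 1 line per way of processing, ordered by value. Red marks an adjusted p under 0.10. All estimates are below 0; those with the oligodendrocyte score, the unassigned share, the GC content and length offsets or the spliced share lie between −0.12 and −0.08 and are not red.

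Oligodendrocyte markers were lower in the same animals. Of 8 markers, 6 passed the test, all lower in MSUS females, among them Mbp at −0.31 (adjusted p = 0.0231) and Mag at −0.28 (adjusted p = 0.0128), with a median of −0.25 over the 8 (2 passed and the median was −0.21 with the GC content and length offsets). Their summed level was 4114 to 6022 CPM in Con females and 3889 to 4809 in MSUS females, and 4657 to 6027 and 5009 to 5433 in Con and MSUS males. The mean log2 CPM of the 8 averaged 8.09 ± 0.178 (SD, n = 6) in Con females, against 7.85 ± 0.095 after MSUS (exact permutation test, two-sided, p = 0.013, adjusted p = 0.0866). None of the 8 was at 0 in any library. Endothelial markers were lower too as a score, 4.57 ± 0.045 in Con and 4.47 ± 0.039 in MSUS females (mean log2 CPM of 6 markers, SD, n = 6; exact permutation test, two-sided, p = 0.00649, adjusted p = 0.0649). All 6 were below 0 with a median log2 fold change of −0.10 (5 of 6 and −0.05 with the offsets), 0 of 6 passed, and their summed level was 172 to 184 CPM in Con and 171 to 182 in MSUS females. The part of the endothelial markers in the Sirt2 result was not tested. Fewer cells of a type and less RNA per cell cannot be told apart in bulk tissue, and the part of the oligodendrocyte markers was not tested beyond the fit with their score.

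None of the 3 class I genes passed in females. Hdac1 (chromosome 4, 129516104 to 129542713, − strand) averaged 955 ± 60.2 normalized counts (SD, n = 6) in Con and 976 ± 36.6 in MSUS females, with a log2 fold change of 0.04 (95% interval −0.06 to 0.13, adjusted p = 0.640). Hdac2 (chromosome 10, 36974544 to 37001889, + strand) had 4104 ± 162 and 4109 ± 73.8, a difference of 0.0053 (−0.06 to 0.07, adjusted p = 0.926). Hdac3 (chromosome 18), the catalytic subunit of NCoR complexes, had 3219 ± 76.3 and 3194 ± 102, a difference of −0.0075 (−0.06 to 0.05, adjusted p = 0.881). In this fit the intervals leave room for changes of at most 0.13 on the log2 scale in either direction. With offsets for GC content and length Hdac1 was at 0.07 (adjusted p = 0.348), Hdac3 at 0.01 (adjusted p = 0.861) and Hdac2 at −0.12 (adjusted p = 0.102), close to the threshold and on the other side of 0.

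The 4 class IIa genes all had estimates below 0 in females, with a median of −0.14, but 3 of them were above 0 with offsets for GC content and length (median 0.01), and none passed the test in either fit. Hdac5 (chromosome 11, 102194432 to 102230166, − strand) had a lowest, median and highest normalized count of 7028, 7476 and 8576 in Con females and 6720, 7094 and 7365 in MSUS females. Hdac7 (chromosome 15, 97792664 to 97844502, − strand) had 1242, 1302 and 1600 in Con and 1158, 1215 and 1300 in MSUS females. In both genes the groups overlapped at the lower end of the Con range, and Con females 2 and 3 were the highest. The log2 fold change was −0.12 for Hdac5 (SE 0.051, adjusted p = 0.129) and −0.17 for Hdac7 (SE 0.070, adjusted p = 0.118).

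Both estimates lay close to the threshold, and both genes are rich in GC (60.0% of the bases of all annotated transcripts in Hdac5 and 59.7% in Hdac7). With the GC content and length offsets they were at 0.07 (adjusted p = 0.277) and 0.01 (adjusted p = 0.916), so that their direction turned. Counts taken without regard to strand gave −0.14 for Hdac5 (adjusted p = 0.0781) and −0.20 for Hdac7 (adjusted p = 0.0719). With these counts 6823 of all 23506 genes tested passed. Without Con female 6, Hdac5 was at −0.14 (adjusted p = 0.0766) and Hdac7 at −0.20 (adjusted p = 0.0778). Without Con female 5 Hdac7 was also past the threshold (−0.20, adjusted p = 0.0852). An exon of Hdac5 shares 111 bases with the microRNA gene Mir8101 on the same strand, and pairs over both are left out of the counts.

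Hdac4 (chromosome 1, 91928779 to 92195699, − strand), the class IIa gene with the highest count after Hdac5, had 4239, 4930 and 5778 in Con females (lowest, median, highest) and 4444, 4614 and 5264 in MSUS females, a log2 fold change of −0.06 (SE 0.069, adjusted p = 0.544). Hdac9 (chromosome 12, 34047580 to 34917095, − strand), a long gene that also gives a short form without the catalytic domain, had 1486, 1749 and 2685 in Con and 1254, 1428 and 1995 in MSUS females. One animal in each group stood highest, Con female 3 and MSUS female 1, and the groups overlapped between 1486 and 1995. Its estimate was the farthest from 0 of the 10, −0.27, with the widest error (SE 0.157, 95% interval −0.58 to 0.04, adjusted p = 0.249). Intron models on the same strand as Hdac4 and Hdac9 were counted as genes of their own. None of the 3 that could be tested (Gm37036, Gm47357 and 4921508M14Rik) passed in any comparison.

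Hdac11 averaged 8659 ± 334 normalized counts (SD, n = 6) in Con and 8641 ± 404 in MSUS females, a log2 fold change of 0.001 (95% interval −0.07 to 0.08, adjusted p = 0.989), or 0.12 (adjusted p = 0.123) with the offsets. Sirt1 (chromosome 10, 63319005 to 63381704, − strand) had a lowest, median and highest of 812, 992 and 1008 in Con females and 945, 1024 and 1076 in MSUS females. Its estimate was 0.10 (SE 0.054, adjusted p = 0.221), or −0.02 (adjusted p = 0.781) with the GC content and length offsets, and the groups overlapped because MSUS females 4 and 6 lay within the Con range.

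**Figure D3:**
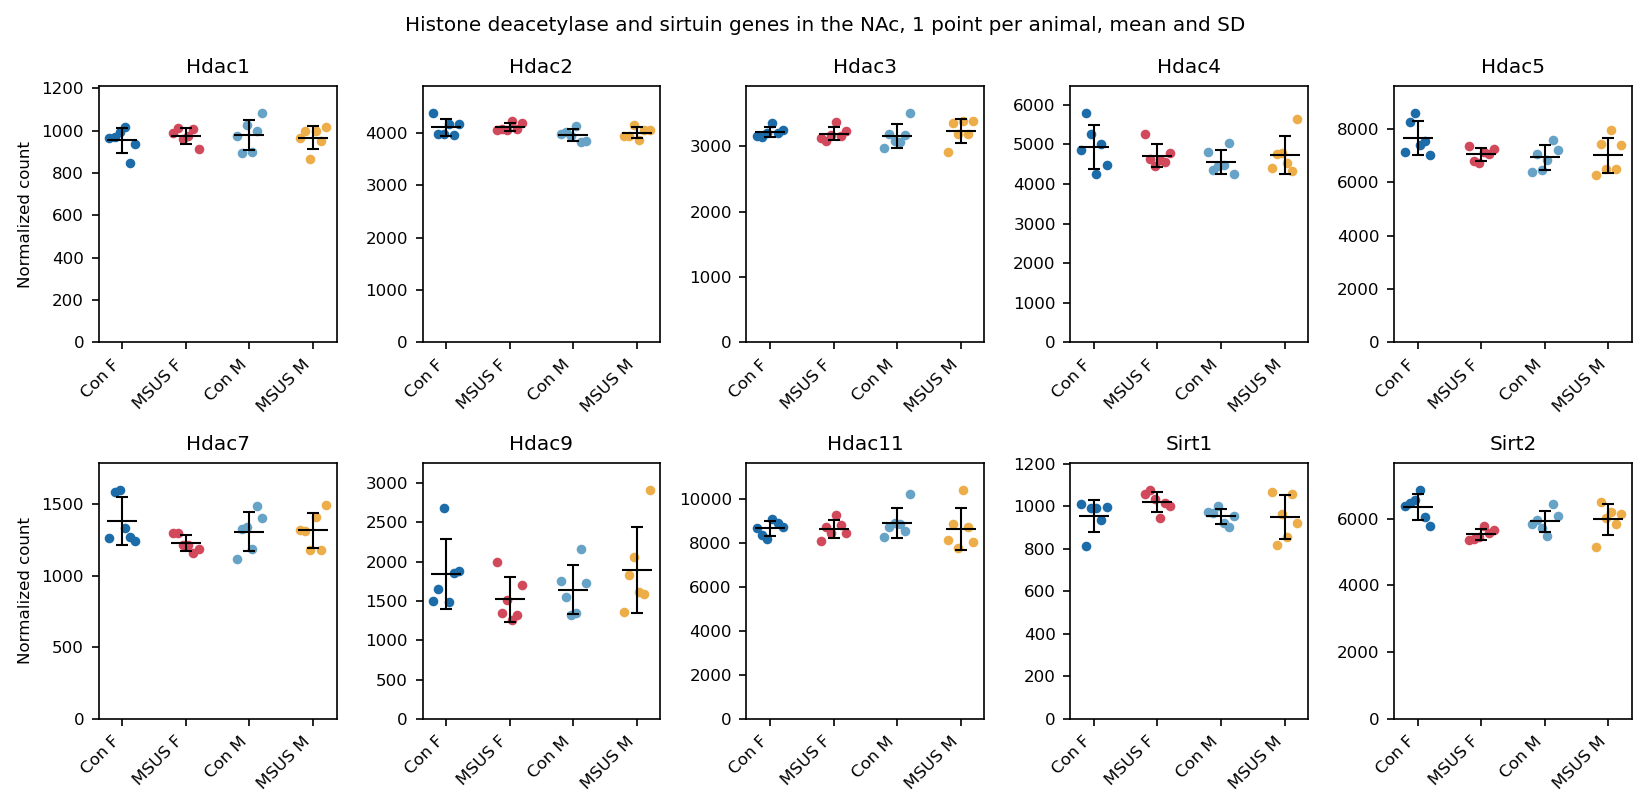
Normalized counts of the 10 genes (vertical axis from 0, 1 panel per gene) in each of 24 animals by group, with the mean and SD of 6 animals. Sirt2 is the 1 panel in which every MSUS female (5358 to 5776) lies below every Con female (5783 to 6856), and in Hdac9 the widest bars come with 1 high animal each in Con females (2685) and MSUS males (2910).

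In males the same comparison gave no call for any of the 10 genes by edgeR's quasi-likelihood test, at an unadjusted p under 0.05 (0 of 10) or by DESeq2 (0 of 10). Over all 20691 genes tested 0% passed, with 191 at an unadjusted p under 0.05 and 0 by DESeq2. Sirt2 had 5486, 5887 and 6431 normalized counts in Con males (lowest, median, highest) and 5142, 6083 and 6486 in MSUS males, a log2 fold change of 0.01 (95% interval −0.10 to 0.12). MSUS males covered the whole range of Con males, with MSUS male 1 the lowest of all 24 animals.

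The class IIa genes had estimates above 0 in males, between 0.0074 for Hdac7 and 0.20 for Hdac9 (SE 0.176, 95% interval −0.14 to 0.55), although all 4 were below 0 in library numbers 1 to 12 alone. Hdac9 had 1324, 1643 and 2157 in Con and 1361, 1724 and 2910 in MSUS males, where MSUS male 6 stood apart. Hdac5 had 6400, 6951 and 7599 in Con males and 6290, 6941 and 7939 in MSUS males. Class I genes stayed between −0.02 and 0.03, Hdac11 was at −0.05 and Sirt1 at −0.01. The adjusted p was 1.00 for each of the 10 genes.

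Whether the MSUS effect differed between the sexes was tested directly by the interaction over 24 animals. None of the 10 genes passed (0 by edgeR's quasi-likelihood test, 1 at an unadjusted p under 0.05, 0 by DESeq2), as did 0% of all 21500 genes, of which 4031 had an unadjusted p under 0.05 and 467 passed by DESeq2. The Sirt2 difference, the effect in females minus that in males, was −0.21 (SE 0.069, 95% interval −0.35 to −0.08), with an adjusted p of 0.1998. No gene had a smaller adjusted p, but the Benjamini-Hochberg adjustment gives this same value to genes with a smaller unadjusted p. It therefore does not place Sirt2 first among all genes. Without MSUS male 1, in which Sirt2 was lowest, the Sirt2 difference was −0.25 (adjusted p = 0.0282). The Sirt2 decrease in females and its absence among the calls in males were therefore not shown to differ when all animals were used.

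The other interaction estimates had wide errors. Hdac9 had −0.48 (SE 0.249, adjusted p = 0.294), Hdac7 −0.18 (SE 0.109, adjusted p = 0.353), Hdac5 −0.13 (SE 0.083, adjusted p = 0.366) and Hdac4 −0.12 (SE 0.099, adjusted p = 0.484). All 4 class IIa genes were below 0 (2 of 4 with the GC content and length offsets), while Hdac1, Hdac2 and Hdac3 lay between −0.04 and 0.05.

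**Figure D4:**
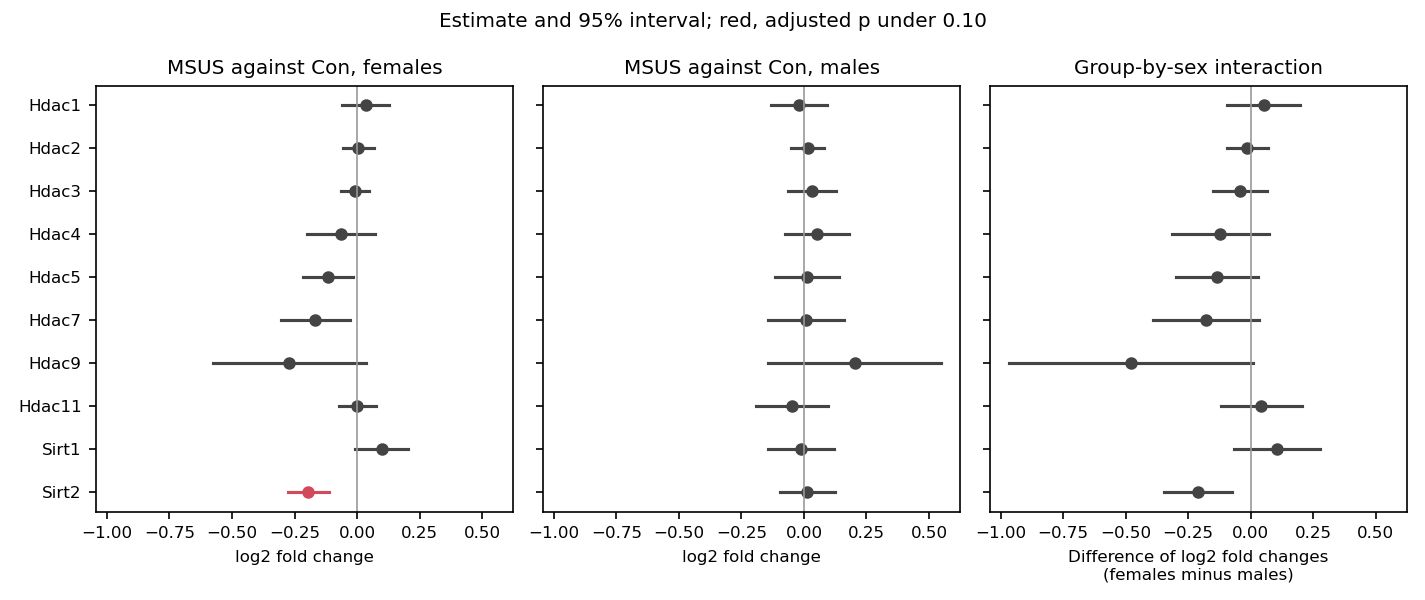
Log2 fold changes of the 10 genes between MSUS and Con in females and in males, and the difference between these effects (horizontal axes), each with a 95% interval. Sirt2 in females (−0.19) is the 1 estimate in red, for an adjusted p under 0.10; Hdac9 has the longest intervals in each panel.

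Females and males were compared within Con and within MSUS animals. In Con animals none of the 10 genes passed by edgeR's quasi-likelihood test or by DESeq2. Of all 20641 genes, edgeR called 2.64% and DESeq2 called 1511. At an unadjusted p under 0.05 there were 2 of the 10, beside 17.8% of all genes. These were Hdac5, higher in females by 0.15 on the log2 scale (SE 0.058, adjusted p = 0.2005), and Sirt2, by 0.11 (SE 0.049, adjusted p = 0.268). Hdac5 was 7659 ± 620 in Con females and 6933 ± 458 normalized counts in Con males. With the oligodendrocyte score as a covariate both passed, at the same sizes (0.15, adjusted p = 0.0667, and 0.11, adjusted p = 0.0968). In that fit 1678 of all 20641 genes passed too, more than the 2.64% without the covariate.

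In MSUS animals again none of the 10 passed by either tool. Of all 20714 genes, edgeR called 0.135% and DESeq2 called 167. At an unadjusted p under 0.05 there was 1 of the 10, beside 7.29% of all genes. That gene was Sirt2, now lower in females (−0.11, SE 0.050, adjusted p = 0.667). These comparisons share the MSUS and Con females with the first one and are no separate evidence on them. Hdac9 was at −0.32 (SE 0.177, adjusted p = 0.667) in MSUS and at 0.17 (SE 0.157, adjusted p = 0.599) in Con animals.

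The levels of several of the genes followed measures of the libraries within groups. Each was related to the oligodendrocyte score, the cortical score (mean log2 CPM of 8 cortical excitatory neuron markers) and the unassigned share, as deviations from the group means over 24 animals, 30 relations in all with adjusted p over the 30. The deviations were permuted over all 24 animals and not within groups. The permutation p thus takes no account of the group means removed and may be too small. Sirt2 fell with the unassigned share (Pearson's r = −0.73, permutation p = 8e-05, adjusted p = 0.0012; Spearman's rho = −0.67, permutation p = 0.00043, adjusted p = 0.0027) and rose with the oligodendrocyte score (r = 0.67, permutation p = 0.00036, adjusted p = 0.00216; rho = 0.70, permutation p = 0.00016, adjusted p = 0.0024). Without the 2 animals farthest on each measure r was −0.62 and 0.53. Within the library sets, r was −0.70 and −0.63 for the unassigned share and 0.70 and 0.77 for the score.

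Hdac3 also fell with the unassigned share (r = −0.70, permutation p = 0.00024, adjusted p = 0.00216; rho = −0.69, permutation p = 0.0003; r = −0.54 without the 2 farthest, −0.72 and −0.62 within sets). Sirt1 rose with it (r = 0.59, permutation p = 0.00263, adjusted p = 0.00789; rho = 0.61, permutation p = 0.00208; r = 0.51 without the 2 farthest), although this was 0.66 in the first library set and 0.14 in the second. Hdac5 and the share gave r = −0.61 (permutation p = 0.00151; rho = −0.66, permutation p = 0.00054; −0.54 without the 2 farthest) but −0.40 and −0.18 within sets. Hdac5 and Hdac7 rose with the oligodendrocyte score, at r = 0.62 (permutation p = 0.00112, adjusted p = 0.00527; rho = 0.62, permutation p = 0.00141) and r = 0.59 (permutation p = 0.00173, adjusted p = 0.00577; rho = 0.56, permutation p = 0.00514). Without the 2 farthest these were 0.53 and 0.49, and within sets 0.92 and 0.44 for Hdac5 and 0.61 and 0.72 for Hdac7. Hdac4 and Hdac9 also had r = 0.49 each with this score (permutation p = 0.0147 and 0.0162, adjusted p = 0.04 and 0.0405), but rho was 0.41 and 0.39 (adjusted p = 0.112 and 0.124). Without the 2 farthest r was 0.37 and 0.56, and within sets 0.66 and 0.36 for Hdac4 and 0.70 and 0.19 for Hdac9.

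By r over all 24 animals, Hdac4, Hdac9 and Hdac11 were, of the 3 measures, related most closely to the cortical score. For Hdac9 this order turned without the 2 farthest animals on each measure (r = 0.47, against 0.56 with the oligodendrocyte score). Hdac4 rose with it (r = 0.77, permutation p = 1e-05, the smallest these permutations can give, adjusted p = 0.0003; rho = 0.74, permutation p = 0.0001), with r = 0.69 without the 2 farthest and 0.83 and 0.76 within sets. Hdac9 rose too (r = 0.62, permutation p = 0.00123, adjusted p = 0.00527; rho = 0.49, permutation p = 0.0155; r = 0.47 without the 2 farthest, 0.72 and 0.52 within sets). Hdac11 fell (r = −0.66, permutation p = 0.00032, adjusted p = 0.00216; rho = −0.66, permutation p = 0.00053; r = −0.62 without the 2 farthest, −0.67 and −0.88 within sets). Hdac7 had r = 0.43 (permutation p = 0.036, adjusted p = 0.0831; rho = 0.39, permutation p = 0.062, adjusted p = 0.124; r = 0.33 without the 2 farthest, 0.46 and 0.43 within sets). Con female 3 and MSUS male 6, the animals with the most Hdac9, had the highest cortical scores, 6.17 and 6.27, against a lowest of 1.40 in MSUS female 5. The cortical score was 4.92 ± 1.14 in Con and 3.20 ± 1.41 in MSUS females (exact permutation test, p = 0.0455, adjusted p = 0.227), and with the score as a covariate the Hdac9 estimate in females was −0.06 (adjusted p = 0.892) and that of Hdac4 0.07 (adjusted p = 0.549).

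**Figure D5:**
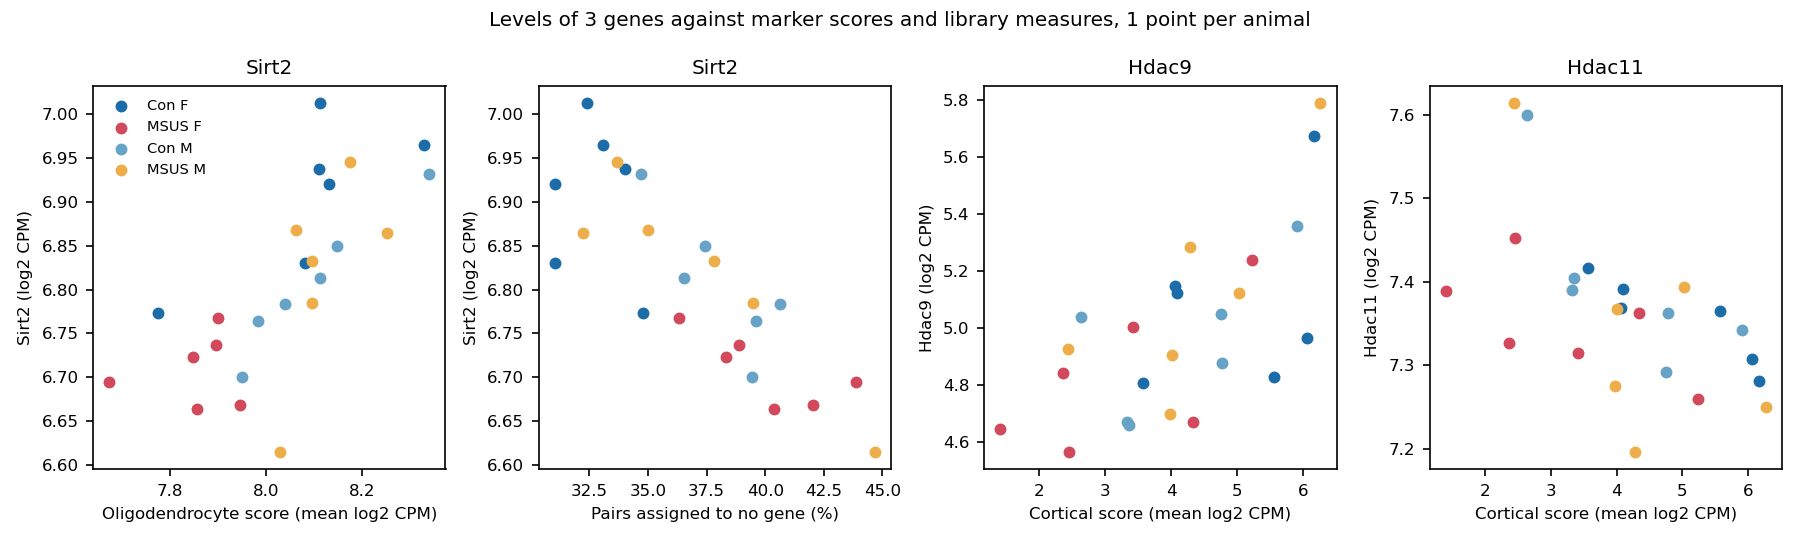
Sirt2, Hdac9 and Hdac11 levels (vertical axes, log2 CPM) against the oligodendrocyte score, the unassigned share in percent and the cortical score (horizontal axes), 1 point per animal, coloured by group. Against Con females (31.0 to 34.8%), MSUS females sit lower in Sirt2 and further right on the unassigned share (36.3 to 43.9%). Males overlap them on both, and MSUS male 1 has the lowest Sirt2 (6.62) and the highest share (44.7%). The highest Hdac9 points are at cortical scores of 6.17 and 6.27.

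Among the 10 genes, Hdac5 and Hdac7 followed each other most closely over 24 animals (r = 0.73), followed by Hdac5 and Sirt2 (0.65) and Hdac4 and Hdac9 (0.65). Sirt1 ran opposite to Sirt2 (−0.60) and Hdac5 (−0.56). These values describe libraries that share the group differences and library measures above.

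For each gene, the genes most alike were sought by the correlation of log2 CPM over 24 animals among 14313 genes with a mean of at least 100 counts. Hdac9 had the closest match, with Epha10 (r = 0.97) and Smyd2 (0.96). Hdac5 was nearest Snx21 (0.91) and Castor2 (0.89), and Sirt2 nearest Ndufv3, a subunit of respiratory complex I (0.91), and Gabarap, an autophagy protein gene (0.88). Hdac11 was nearest Adcyap1r1, the PACAP receptor (0.90), and Maged1 (0.89), Hdac4 nearest Ntrk2, the BDNF receptor, and Fmnl1 (both 0.90), Sirt1 nearest the zinc finger genes Zfp397 (0.89) and Zbtb6 (0.86), and Hdac7 nearest Tle2 (0.89) and Lrsam1 (0.87). By r the class I genes had looser neighbours, Calb2 (0.84) and Frem1 (0.82) for Hdac1, Apmap (0.84) and Iscu (0.81) for Hdac3, and Eif3e (0.71) and Rap2b (0.70) for Hdac2. Spearman's rho did not keep this order throughout. It was 0.68 for Hdac1 and Calb2 and 0.81 for Hdac3 and Apmap, but 0.76 for Hdac7 and Tle2.

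Of the 8 other family genes, 1 passed in females, beside 25.1% of all genes tested (13.1% higher and 11.9% lower). This was Hdac8, an X-linked class I gene (chromosome X, 102284639 to 102505359, − strand). It had 579, 705 and 755 normalized counts in Con females (lowest, median, highest) and 727, 794 and 852 in MSUS females, a log2 fold change of 0.21 (SE 0.063, adjusted p = 0.0408). The groups overlapped, and with the GC content and length offsets it was at 0.17 (adjusted p = 0.118). Mitochondrial Sirt3 was at −0.14 (SE 0.059, adjusted p = 0.109), and Hdac6, Hdac10, Sirt4, Sirt5, Sirt6 and Sirt7 were between −0.12 and 0.10. With the offsets the 2 of 8 that passed were others, nuclear Sirt7 at 0.17 (adjusted p = 0.0315) and Sirt4 at 0.15 (adjusted p = 0.0997), beside 3139 of all 20571 genes. None of the 8 passed in the other 4 comparisons.

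The partners of these enzymes were taken as 9 lists of 101 genes, of which 99 were tested. In females 26 passed (26.3%, beside 25.1% of all genes), 5 higher and 21 lower (beside 13.1% and 11.9% of all genes), and their median log2 fold change was −0.05. With the GC content and length offsets 14 of 99 passed, 6 higher and 8 lower, with a median of 0.0066. Over all 20571 genes 3139 passed with these offsets, 1542 higher and 1597 lower. DESeq2's size factors left the counts in the lists at 5 and 21. The larger number of lower than higher genes in the lists thus depended on the offsets, and directions below are those without them unless stated. In the other comparisons 0 of 99 passed in males, in the interaction and between the sexes in MSUS animals by edgeR's test (0, 23 and 5 at an unadjusted p under 0.05). Between the sexes in Con animals 1 passed, Mllt1, higher in females (0.20, adjusted p = 0.0914).

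Among the complexes built around HDAC1 and HDAC2, all 10 NuRD genes had estimates below 0 in females and 3 passed (3 of 10 below 0 and 0 passed with the offsets), with Mbd3 at −0.11 (SE 0.029, adjusted p = 0.0259) and Gatad2a at −0.21 (SE 0.070, adjusted p = 0.0540), which link the subunits, first by p. Of 15 Sin3 genes, 1 rose and 3 fell, with Arid4b, a scaffold subunit, at 0.15 (SE 0.032, adjusted p = 0.00995) and Ing2, a histone reader, at −0.17 (SE 0.041, adjusted p = 0.0161). Of 10 CoREST and MiDAC genes, 2 fell, Hmg20b at −0.28 (SE 0.066, adjusted p = 0.0168) and the corepressor Rcor2 at −0.60 (SE 0.156, adjusted p = 0.0237). In the NCoR complex around HDAC3, Ncor1 was at −0.07 (adjusted p = 0.202). With the offsets Ing2 still passed (−0.23, adjusted p = 0.0154), as did Rcor2 (−0.46, adjusted p = 0.0691), while Mbd3, Gatad2a, Arid4b and Hmg20b did not. The catalytic subunits Hdac1, Hdac2 and Hdac3 themselves lay within 0.04 of 0 without the offsets.

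On the class IIa side, 10 of 11 genes for MEF2 and SRF targets and 14-3-3 anchors could be tested, all 10 were below 0 in females and 3 passed (8 of 10 below 0, with 1 rise and 2 falls, under the offsets). These included Mef2d at −0.13 (SE 0.037, adjusted p = 0.0340) and the 14-3-3 gene Ywhab at −0.13 (SE 0.043, adjusted p = 0.0542). Of 15 kinase genes that can phosphorylate class IIa enzymes or their partners, 2 rose and 2 fell, with Camk2a, the main CaM kinase II of forebrain neurons, at −0.20 (SE 0.049, adjusted p = 0.0195) and Camk1g at 0.40 (SE 0.124, adjusted p = 0.0476). Of these 4 named genes, Ywhab and Camk1g passed with the offsets too (adjusted p = 0.0965 and 0.0570).

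The enzymes that add acetyl groups had estimates between −0.12 and 0.09. Of 11 histone acetyltransferase genes, 2 fell, Kat5 at −0.11 (SE 0.029, adjusted p = 0.0261) and Kat14 at −0.12 (SE 0.038, adjusted p = 0.0515). Of 11 genes for readers of acetyl-lysine, 2 rose and 2 fell, led by Brd2 at −0.16 (SE 0.032, adjusted p = 0.0073) and Mllt3 at 0.18 (SE 0.043, adjusted p = 0.0166). Among 13 genes for the supply and use of NAD, the cosubstrate of sirtuins, 12 could be tested and 3 fell, among them the NAD consumers Sarm1 at −0.23 (SE 0.069, adjusted p = 0.0409) and Parp1 at −0.26 (SE 0.080, adjusted p = 0.0447). Of these 6 named genes, Mllt3 alone passed with the offsets (0.13, adjusted p = 0.0513).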

How the data were processed

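Per the labels and the study's methods, RNA of 24 animals was depleted of rRNA without poly(A) selection, and the authors aligned pairs to mm10 with STAR 2.6.1b and GENCODE M15. The deposited values are counts of pairs that mapped to 1 place, per gene and not normalized, one set without regard to strand and one per strand; the sense strand was used. Pairs over exons of several genes are not counted. Gene positions and lengths are from GENCODE M21 (52489 of 52636 identifiers matched). The least different pair of libraries within a group, of 60 pairs, had a chi-square of 5.88 per gene, so no library was a copy of another.

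Genes were filtered by filterByExpr (minimum count 10), scaled by TMM and tested with the robust quasi-likelihood F test of edgeR 4.0.16 (limma 3.58.1, R 4.3.3), with Benjamini-Hochberg adjustment over all genes tested and a threshold of 0.10. SE is the log2 fold change over the square root of F. Normalized counts used size factors of DESeq2 1.42.0. The estrous stage was left out, because the labels give stages to 6 males and to 6 of 12 females. On data simulated from the female counts (20571 genes), 24 of 100 genes changed by 0.25 on the log2 scale were recovered, and 77 of 100 changed by 0.5.

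The genes and lists were chosen with earlier results of these data known. Named genes are the 10, the other 8 of the family, the 2 with the smallest p in females in each other list, and the 2 most alike per gene; 1 result under this rule is not reported here. Alternatives were DESeq2, its size factors, other filters, unstranded counts, a replicate block, GC content and length offsets, library set, spliced share (from the study's alignment statistics), unassigned share, cortical and oligodendrocyte scores, all animals, a threshold of 0.05 and each animal left out. Size factors and offsets were applied to the other lists after their results had been seen.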

Additional observations from a re-analysis of the deposited data

Results flagged for a closer look

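In 3 of 40 combinations of gene and group of 6 animals, 1 animal stood apart from the others by Dixon's gap test at the 95% level, which chance gives in about 1 in 20 groups. MSUS male 6 had 5635 normalized counts of Hdac4, Con female 3 had 2685 of Hdac9, and Con male 6 had 10231 of Hdac11. Each was the highest of its group. MSUS male 6 and Con female 3 had the highest cortical scores of the 24 animals (6.27 and 6.17), and Con male 6 had the lowest of the Con males (2.64). The part of the cortical score in these values was not tested.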

How the results depend on the processing

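Sirt2 stayed below 0 in females under every alternative run. In females the number of the 10 that passed was 1 under DESeq2, its size factors, both filters, the cortical score, library set, all animals, an adjusted p under 0.05 and the replicate block (Sirt2 −0.19, adjusted p = 0.0427; the replicate numbers did not pair the animals, with correlations from −0.39 to 0.43, and not every library lay closest to its own number). It was 0 with GC content and length offsets, with or without the replicate block (Sirt2 −0.10 in both), with spliced share, unassigned share or oligodendrocyte score as a covariate, and in either library set alone, where fewer animals were used. It was 3 with counts without regard to strand, beside 6823 of all 23506 genes tested. With an animal left out it was 1 to 3, and the calls over all genes in these fits are not given here. Between the sexes in Con the number of the 10 was 2 with the oligodendrocyte score, beside 1678 of all 20641 genes. In the interaction it was 0 to 1 with an animal left out. The block changed no call of the 10 and left 3800 calls over all genes. The cause of these changes was not tested. Over all genes in females, 5156 calls became 0 with the spliced or unassigned share and 41 with the oligodendrocyte score, 1959 with the cortical score, 3139 with the offsets, 1599 with these and the block, 3126 at 0.05, 23 and 0 in the library sets. Con and MSUS females did not overlap in the unassigned share, so the fit with it can hardly tell the share from the group. On simulated female data, 24 of 100 changes of 0.25 were recovered. There 200 of 20571 genes were changed, while 25.1% of genes passed in the real comparison, so the adjustment was stricter in the simulation. How often a change of the size seen in Sirt2 would be missed in these data was therefore not measured.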
